A study of Mus musculus with 2 samples.

Results

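The neutrophil-rich spots of the metastatic lung were the 110 spots of that section with the highest levels of 5 neutrophil genes, S100a8, S100a9, Retnlg, Csf3r and Cxcr2. They were taken from the 1104 spots of the section that held at least 1000 counts, and the 2 sections of the series had 2998 spots over tissue in all. The score of a spot was the mean over the 5 genes of the natural log of 1 plus the counts per 10000 counts of the spot. The highest 10% of spots were called neutrophil-rich and the lowest 50%, 552 spots, were the reference. The same score in the control lung gave a highest 10% of 186 spots and a reference of 930 spots, out of 1861 spots with at least 1000 counts.

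The study asked how breast cancer metastases change the lung around them. Its spatial data were made with the Visium platform, in which a tissue section lies on an array of barcoded spots and each spot captures the mRNA of the several cells above it. The metastatic lung came from a mouse with an orthotopic injection of 4T1 cells, a mouse mammary tumor line, into the mammary fat pad, and the control lung received no treatment. By the methods, the injected mice were young adult females of the Balb/c strain and their lungs were taken around the end of the third week, and the tissue was fresh-frozen. The labels give neither strain nor age for the control, and each condition was 1 section, so animal, section and condition cannot be told apart.

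Neutrophils are short-lived phagocytes that are made in the bone marrow and follow chemokines through CXCR2, while G-CSF, acting on CSF3R, drives their production and release. Their granule proteins are made in order as the cell matures. Primary granule proteins such as myeloperoxidase come first, secondary granule proteins such as lactoferrin follow, and the mature cell that enters blood has mostly stopped transcribing both. The lung capillaries hold a large marginated pool of neutrophils under normal conditions, and the 4T1 model is known for a strong granulocytosis.

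The groups had similar median depths, but the deepest spots had low scores. The neutrophil-rich spots had a median of 11380 counts (range 3072 to 23164) and the reference spots a median of 12179 (range 1030 to 77512), in a section of 14657881 counts, of which the groups held 1253024 and 8448026. The 111 spots with the lowest scores had a median of 19776 counts. In the control lung, with 20329126 counts, the medians were 9631 and 9429. Spots of 1 section are not replicates of a condition, so no test across spots was made. Levels below are summed counts per 10000 counts (CP10k) over the spots of a group, and a ratio is given with its exact 95% interval, which covers counting error only. The 858 barcodes found in both sections name positions of the array and not cells.

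The 5 genes that chose the spots are described here by their levels only, without a ratio or test. S100a8 and S100a9, the subunits of calprotectin, stood at 27.9 and 36.4 CP10k in the neutrophil-rich spots and at 2.74 and 3.90 CP10k in the reference. S100a8 was counted in every one of the 110 spots, with a lowest level of 9.39, a median of 24.3 and a highest of 90.8 CP10k. The remaining 3 genes were sparse. Retnlg, a resistin-like gene of mature neutrophils, was counted in 84.5% of the neutrophil-rich spots at 2.38 CP10k, Csf3r in 90.9% at 2.07 CP10k, and Cxcr2 in 51.8% at 0.615 CP10k. The lowest score inside the group was 1.63 and the highest outside it 1.62, and the highest of all was 2.42, so the limit cut through a continuous range. No control spot reached the limit of 1.63, which with 0 of 1861 spots allows a share of up to 0.161%, taken as 3 of the 1861. The highest control score was 1.36, the control limit for the highest 10% was 0.531, and 33.8% of control spots had none of the 5 genes. In the highest 10% of the control lung, S100a8 stood at 4.18 CP10k and Retnlg at 0.372 CP10k.

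**Figure D1:**
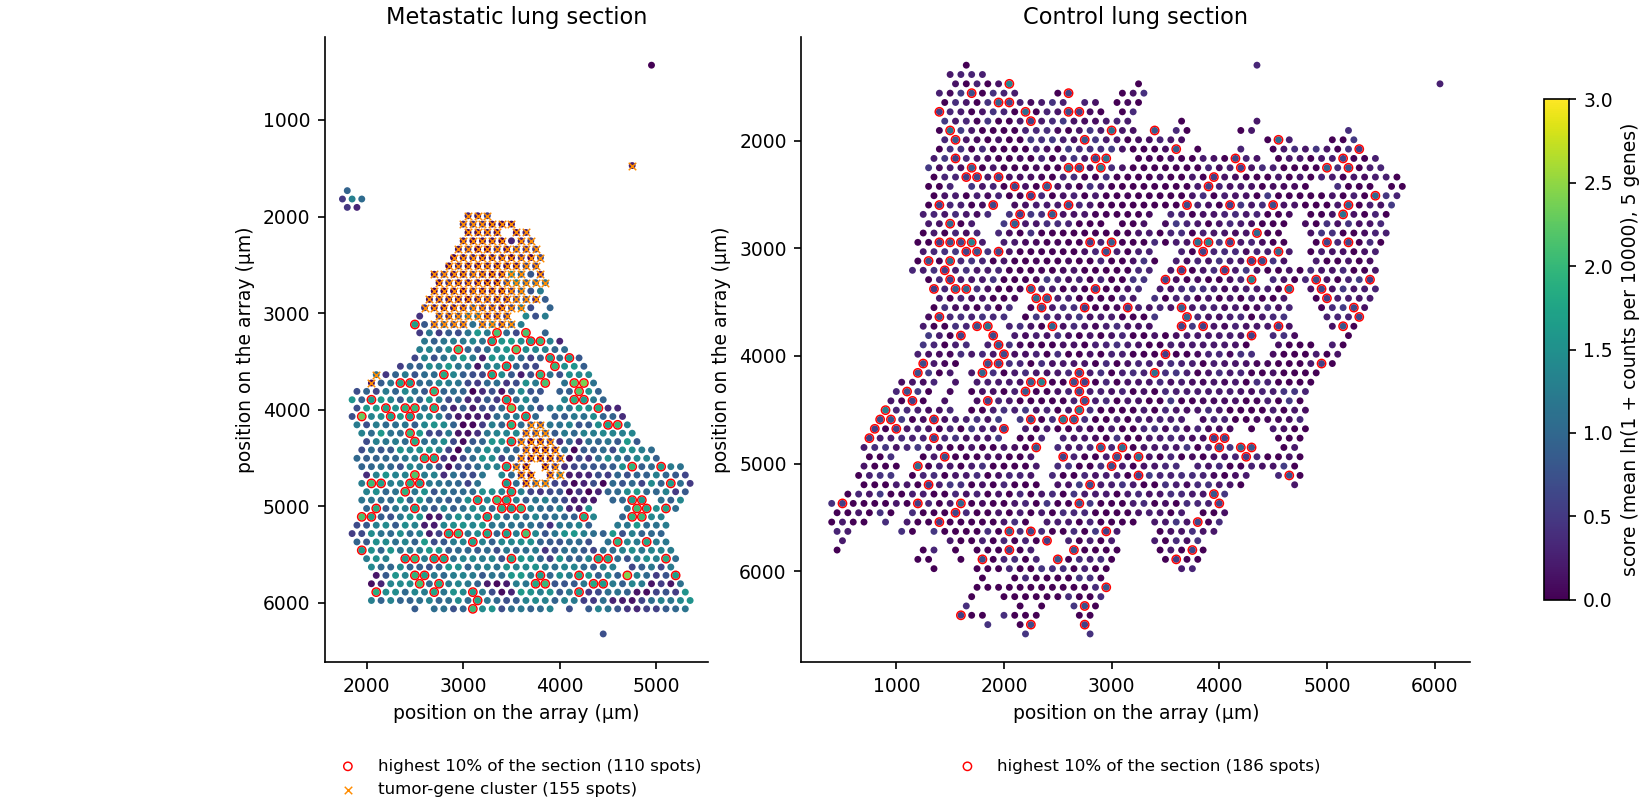
Both sections drawn by position on the array in µm, each point a spot colored by its score for the 5 neutrophil genes on one scale. Red circles mark the highest 10% of each section (110 and 186 spots) and orange crosses the 155 spots of the tumor-gene cluster, in which no neutrophil-rich spot lies.

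The neutrophil-rich spots were alveolar. Of the 110 spots, 94 (85.5%, exact interval 77.5 to 91.5%) were among the 50% of spots of the section highest for alveolar type 1, capillary and alveolar fibroblast genes, against 28.8% of the reference spots. In the control lung the shares were 64.0% and 42.5%. Genes of alveolar type 1 (AT1) cells, the flat cells of gas exchange, stood at 57.6 against 23.1 CP10k, a ratio of 2.49 (2.42 to 2.56). Genes of the general capillary, the common lung capillary endothelium, stood at 28.9 against 9.94 CP10k, a ratio of 2.90 (2.79 to 3.02), and those of aerocytes, the endothelium apposed to AT1 cells, gave a ratio of 2.75. Across the 1104 spots the neutrophil score and the alveolar score had a Pearson correlation of 0.75, and in the 1861 control spots 0.26, as a description of spots that share a library. Because the reference was thus rich in airway and tumor spots, many results below are also given for alveolar spots alone. These were the 552 spots above the median alveolar score and outside the tumor-gene cluster, of which the highest 10% (55 spots, all of them also neutrophil-rich) were set against the lowest 50% (276 spots). This comparison was chosen after seeing the data.

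The spots highest for airway genes held none of the neutrophil-rich spots. Of the 110 spots with the highest levels of club and ciliated cell genes, 0 were neutrophil-rich, while 93 of the 552 reference spots (16.8%) were among them. The upper end of the exact interval for 0 of 110 was 3.30%. Within 200 µm of such an airway spot lay 15.5% of the neutrophil-rich spots and 32.2% of the reference. The summed airway genes stood at 838 against 2442 CP10k, a ratio of 0.343, and this sum is carried by Scgb1a1, the secretoglobin of club cells. Without Scgb1a1 the ratio was 0.577 (0.559 to 0.596). With the secretoglobins and other abundant gene families left out of the library size, and the spots chosen anew, the airway ratio was 0.474 (0.471 to 0.476). The median spot showed the opposite order, with airway genes at 544 CP10k in the neutrophil-rich and 399 CP10k in the reference spots, while the highest reference spot held 7341 CP10k and the highest neutrophil-rich spot 3215 CP10k. Foxj1, the regulator of motile cilia, stood at 0.128 against 0.397 CP10k.

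Large vessels gave no such gap. Of the neutrophil-rich spots 10.9% (5.77 to 18.3%) were among the 110 spots highest for arterial and venous endothelial genes, against 8.15% (6.01 to 10.8%) of the reference. Within 200 µm of a vessel spot lay 53.6% of the neutrophil-rich and 33.2% of the reference spots. When spots of the tumor-gene cluster were left out these shares were 44.2% and 41.1%. The large vessel genes as a sum had a ratio of 1.95 (1.83 to 2.07) over the whole section and 0.919 (0.848 to 0.995) in alveolar spots alone. Efnb2, an ephrin of arterial endothelium, was at 1.76 against 0.524 CP10k and Vwf, von Willebrand factor, at 3.29 against 2.21 CP10k. Smooth muscle spots made up 7.27% of the neutrophil-rich and 12.9% of the reference spots.

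No neutrophil-rich spot lay in the tumor-gene cluster, and the shares in 4 rings around it had overlapping intervals. This cluster of 155 spots, 1 of 5 found from all genes, held the highest level among them of 4T1 and tumor genes, 9.20 against 5.43 CP10k outside it, and few alveolar genes. It formed a patch of 123 and a patch of 29 spots. It was found from expression alone, with no histology, and includes tissue poor in alveolar genes whether or not tumor cells lie there. The tumor list stood at 10.1 CP10k in alveolar spots of the control lung, above its level in the cluster, so the list does not mark tumor cells by itself. Among the 66 spots highest for that list, 1 was neutrophil-rich and 60 were in the reference. None of its spots was neutrophil-rich (upper end of the exact interval 2.35%) and 148 were in the reference. Of the 102 spots up to 200 µm away 10.8% (5.51 to 18.5%) were neutrophil-rich, of the 197 spots between 200 and 500 µm 10.7%, of the 343 spots between 500 and 1000 µm 12.0%, and of the 307 spots over 1000 µm away 12.1%. The 5 score genes stood at 3.54 CP10k in the cluster, 18.6 (17.9 to 19.3) up to 200 µm away and 24.4 (23.8 to 25.1), 25.5 and 23.6 CP10k further out. For this level the intervals of the nearest 2 rings do not overlap. With a narrower cluster of 83 spots, from 8 clusters in place of 5, the shares up to 200 µm and from 200 to 500 µm were 3.17% (0.387 to 11%) and 15% (8.00 to 24.7%). The score genes there stood at 9.09 (8.46 to 9.75) and 34.1 (32.9 to 35.3) CP10k, and at 23.3 and 22.9 CP10k further out. Over 500 µm from the 155 spots lay 71.8% of the neutrophil-rich spots, 49.3% of all reference spots and 67.3% of the reference spots outside the cluster.

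**Figure D2:**
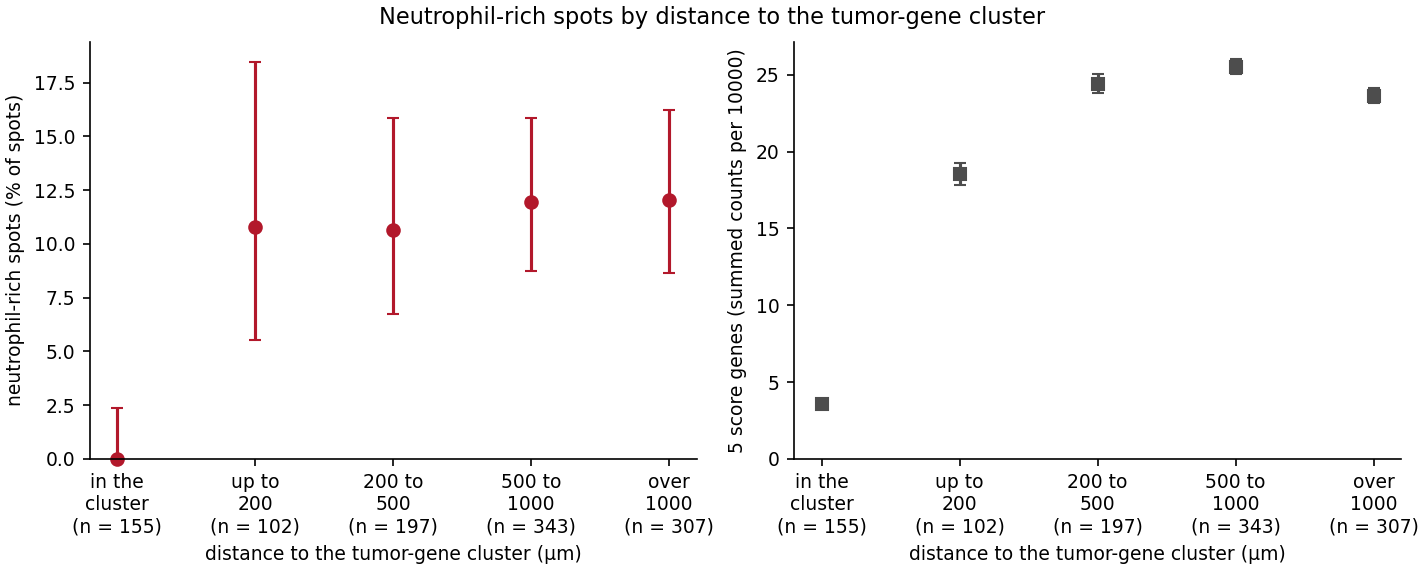
Neutrophil-rich spots as a percent of all spots (left) and the summed level of the 5 score genes in counts per 10000 (right), by distance in µm to the tumor-gene cluster, with exact 95% intervals of the counts and the number of spots under each point. The share is 0 in the cluster and between 10.7 and 12.1% in the 4 rings outside it.

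The spots were gathered in small groups. Of the adjoining spots of a neutrophil-rich spot 18.4% were themselves neutrophil-rich, against 9.31% for the other spots, and within alveolar spots alone 13.7% against 10.5%. They formed 64 patches, of which the largest had 7 spots and 38 were single. The 4 quadrants of the section held between 6.36 and 13.2% neutrophil-rich spots. In the control lung the corresponding shares of adjoining spots were 15.3% and 9.30%.

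Neutrophil genes that the score did not use followed it. The 32 other neutrophil genes that the files hold, of a list of 33, summed to 16.5 CP10k in the neutrophil-rich spots and 7.09 CP10k in the reference, a ratio of 2.33 (2.22 to 2.45). Among the neutrophil-rich spots the lowest, median and highest level of this sum were 4.84, 16 and 44.9 CP10k, and among the reference spots 0, 7.73 and 59.1 CP10k, so the groups overlap. Of the 22 members with at least 50 counts, 13 were at least 2-fold higher and 2 at least 2-fold lower, where 10.4% and 5.37% of all 11239 genes were. The median log2 ratio of these members was 1.33, against 0.28 over all genes. In alveolar spots alone the sum was 18.5 against 9.93 CP10k, a ratio of 1.86 (1.74 to 1.99), and 6 of 16 members were at least 2-fold higher and 0 lower, where 0.678% and 1.13% of 8706 genes were. In the control lung the ratio was 1.55 (1.46 to 1.64), with 5 of 15 members at least 2-fold higher, where 2.63% of 11966 genes were, and 0 lower, where 4.26% were. With the tumor-gene cluster left out the ratio was 2.58, with 13 of 19 members at least 2-fold higher and 0 lower, where 6.74% and 2.53% of 10479 genes were. In control alveolar spots alone it was 1.25 (1.16 to 1.35), with 2 of 11 members higher and 0 lower, where 0.158% and 0.938% of 10123 genes were.

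Among these genes Il1b, the cytokine interleukin 1 beta, stood at 1.77 against 0.385 CP10k, a ratio of 4.61 (3.87 to 5.48), and it was counted in 74.5% of neutrophil-rich and 38.8% of reference spots. Stfa2l1, a stefin, had a ratio of 7.14, and Mmp8, the neutrophil collagenase, one of 5.24 (2.82 to 9.63). The pathogen receptor Clec4e (Mincle) had a ratio of 4.39 and Trem1, which amplifies inflammatory signals, one of 3.37. Wfdc21, a whey acidic protein gene, was at 1.65 against 0.471 CP10k. Its ratio was 3.51 over the section and 3.06 in alveolar spots alone, and that of the interferon-induced membrane gene Ifitm6 was 5.06 and 4.86. Ly6g, the surface marker used to stain mouse neutrophils, gave only 11 counts in the neutrophil-rich spots and 1 in the reference. The 2 members that were lower were Padi4, which citrullinates histones in neutrophil traps (3 against 76 counts), and Acod1, the itaconate enzyme of activated myeloid cells (1 against 56 counts). In alveolar spots alone both had 1 against 5 counts.

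**Figure D3:**
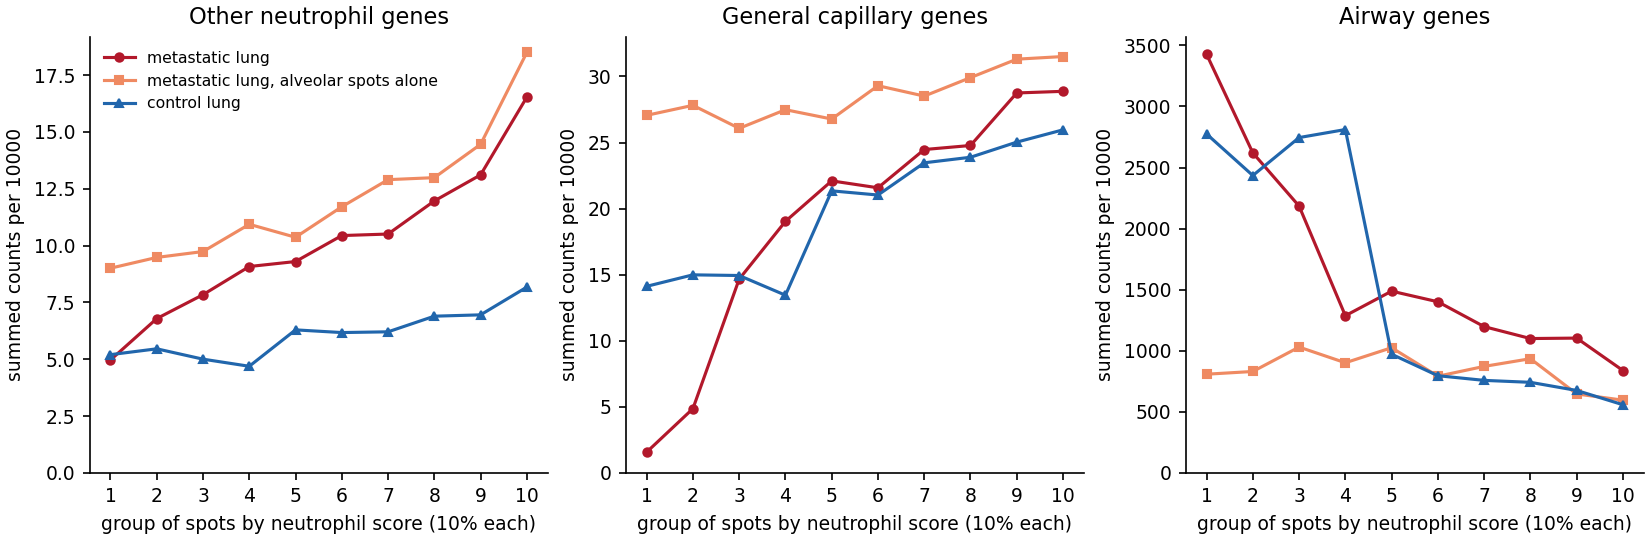
Summed counts per 10000 of other neutrophil genes, general capillary genes and airway genes for 10 groups of spots ordered by neutrophil score, each of 10% of the spots, in the whole metastatic section, its alveolar spots alone and the control lung. Other neutrophil genes reach 16.5 in group 10 of the metastatic section. Capillary genes are nearly level in alveolar spots alone, which were chosen in part by these genes. Groups 1 to 3 of the control are ties at a score of 0.

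Secondary granule genes had the largest ratios among the genes with at least 200 counts that the score did not use. Ngp (neutrophilic granule protein) had 242 counts in the neutrophil-rich and 47 in the reference spots, 1.93 against 0.0556 CP10k, a ratio of 34.7 (25.3 to 48.5). Camp, the cathelicidin antimicrobial peptide, had 246 against 54 counts and a ratio of 30.7 (22.8 to 42.0), and Ltf, lactoferrin, 103 against 40 counts and a ratio of 17.4 (11.9 to 25.7). In alveolar spots alone the ratios were 15.4, 13.1 and 10.5, the 3 highest among the genes with at least 50 counts there. The size of these ratios depends on S100a8 and S100a9, since a score without this pair gave 4.16 (3.21 to 5.36) for Ngp and 3.06 (2.37 to 3.89) for Camp, and 0.751 for the full list with Hp. Lcn2, lipocalin 2, and Chil3, a chitinase-like protein that alveolar macrophages also express, had ratios of 2.39 and 2.17. The full list of 9 genes summed to a ratio of 1.03 (0.977 to 1.08), and Hp, haptoglobin, which epithelium also expresses, made up 10765 of its 12779 reference counts at a ratio of 0.519. Without Hp the ratio was 3.73 (3.47 to 4.02), and 3.42 in alveolar spots alone. Taking Hp out was chosen after seeing its values. In the control lung Ngp and Camp had ratios of 70.0 (34.1 to 167) and 39.2 (21.2 to 79.1), and Ltf one of 0.687 (0.473 to 0.972).

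Ngp, Camp and Ltf lie on the same stretch of mouse chromosome 9. Their sequences before the transcription start are shown because these genes led the comparison. They are from RefSeq on GRCm38.p6, the assembly that the mm10 build of the files names, and run 5′ to 3′ on the strand of the gene up to the base before the start. Capitals mark matches to TTNNGCAA, or TTGCNNAA on the other strand, the letters of a C/EBP site, the family of factors that drive granule genes.
Camp (chr9:109849457-109849706, minus strand): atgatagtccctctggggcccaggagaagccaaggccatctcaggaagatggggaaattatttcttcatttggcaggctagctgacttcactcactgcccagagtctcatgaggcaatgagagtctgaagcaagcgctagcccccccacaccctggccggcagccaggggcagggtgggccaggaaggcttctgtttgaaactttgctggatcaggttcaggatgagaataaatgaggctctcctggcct
Ngp (chr9:110419558-110419807, plus strand): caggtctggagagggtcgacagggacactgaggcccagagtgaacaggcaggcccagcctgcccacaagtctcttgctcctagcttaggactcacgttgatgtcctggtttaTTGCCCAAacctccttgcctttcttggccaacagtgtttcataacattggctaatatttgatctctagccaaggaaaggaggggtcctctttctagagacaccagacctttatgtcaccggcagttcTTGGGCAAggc
Ltf (chr9:111019042-111019291, plus strand): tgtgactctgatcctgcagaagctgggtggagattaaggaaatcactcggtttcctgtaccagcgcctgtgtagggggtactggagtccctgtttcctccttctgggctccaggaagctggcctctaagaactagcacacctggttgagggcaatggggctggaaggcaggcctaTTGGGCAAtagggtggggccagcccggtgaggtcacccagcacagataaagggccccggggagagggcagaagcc
The Ngp sequence held 2 matches, Ltf 1 and Camp none, and 9.56% of 32851 start-site windows of the same 250 bases held at least 1. The core letters of a PU.1 site, GAGGAAGT or ACTTCCTC, were in 0 of the 3 and in 2.44% of all. A match of letters is a description and does not show binding.

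Counts of these 3 genes were gathered in few spots. Over the whole section, the 10 spots highest for each gene held 39.4% of Ngp, 35.9% of Camp and 38.8% of Ltf counts, but 6.62% of S100a8, 6.69% of Csf3r and 11.5% of Retnlg counts. Ngp reached 32 and Camp 46 counts in a single spot. In 28 spots the 3 genes together had at least 10 counts, a limit set after seeing the data. These spots held 57.5% of their 1185 counts, 19 of them were neutrophil-rich and 0 were in the reference or in the tumor-gene cluster. By contrast 51 of the 110 neutrophil-rich spots (46.4%) had no count of the 3 genes.

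The neutrophil-rich spots differed among themselves. The 19 with at least 10 counts of Ngp, Camp and Ltf had a median of 11438 counts and the other 91 a median of 11055. S100a8 and S100a9, which chose the spots, stood at 42.3 and 54.8 CP10k in the 19 and 24.6 and 32.1 CP10k in the others. Lcn2 was higher by 3.23-fold (2.46 to 4.23), Chil3 by 2.38-fold (1.78 to 3.18) and Ifitm6 by 4.02-fold (2.48 to 6.49). Cd177, a surface protein stored with granules, had 12 counts in the 19 spots and 5 in the 91. Wfdc21 was higher by 1.62-fold (1.17 to 2.21), and Mmp9 and Mmp8 had ratios of 1.37 and 1.36 with intervals that include 1. Il1b was lower, with a ratio of 0.553 (0.349 to 0.841). The score genes Retnlg and Csf3r stood at 1.67 against 2.54 and 1.58 against 2.18 CP10k. The spots were chosen on the mean of all 5 genes, so a high S100a8 admits spots with less of the others. No difference is therefore read from these score genes, and whether the choice also acts on Il1b was not tested. The ratios for AT1 and general capillary genes were 1.14 and 0.994. In the 552 alveolar spots, which were not chosen by the score, S100a8 had a Pearson correlation of 0.78 with S100a9, 0.34 with Retnlg, 0.23 with Csf3r and 0.38 with the sum of Ngp and Camp, and that sum had one of 0.08 with Retnlg. Among the 110 chosen spots S100a8 and Csf3r had one of -0.27, the opposite sign. These are descriptions over spots that share a library.

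**Figure D4:**
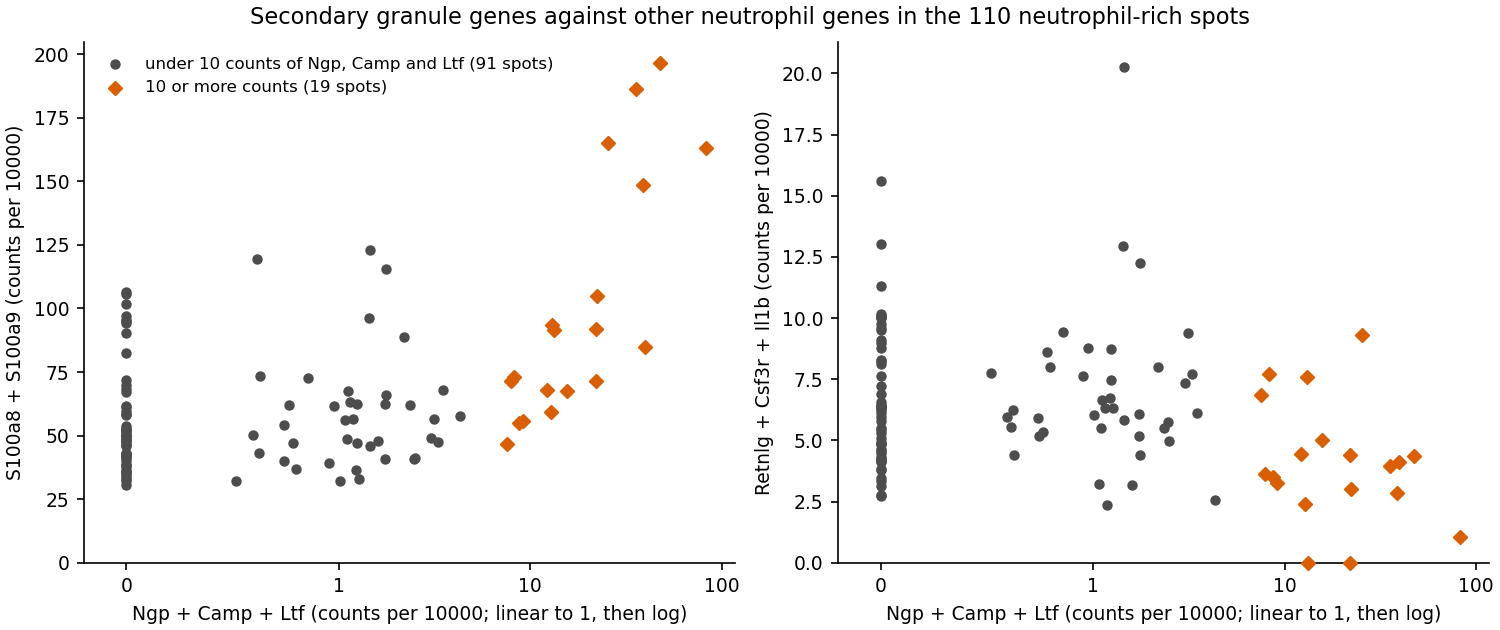
Each of the 110 neutrophil-rich spots by its Ngp, Camp and Ltf level (horizontal, counts per 10000, linear up to 1 and log above) against S100a8 plus S100a9 (left) and Retnlg, Csf3r and Il1b (right) in counts per 10000. The 19 spots with at least 10 counts of the 3 granule genes (diamonds) include the highest S100a8 and S100a9 levels, while 51 spots have none of the 3 genes.

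Of the primary granule genes, Mpo, Elane and Ctsg were nearly absent apart from a pair of places, while Prtn3 was spread more widely. Mpo, myeloperoxidase, had 36 counts in 9 of the 1104 spots, of which 17 and 10 were in 2 neutrophil-rich spots. The same spots held 4 and 2 counts of Elane (neutrophil elastase), 8 and 2 of Prtn3 (proteinase 3) and 5 and 3 of Ctsg (cathepsin G). The section total was 9 for Elane, 12 for Ctsg and 131 for Prtn3, the last in 77 spots, with 20 counts in the neutrophil-rich and 77 in the reference spots. Each of the 2 spots adjoined at least 1 further spot with an Mpo count. In the control lung Mpo had 16 counts in 12 spots, with at most 4 in a spot. In these spots Ngp, Camp and Ltf together had 7 and 3 counts, below the 10 counts used above. As a sum the primary granule list had a ratio of 2.61 (2.03 to 3.34) and of 3.05 in alveolar spots alone, and its values in the 4 quadrants of the section ran from 0.456 to 6.60. Its 91 counts in the 110 neutrophil-rich spots include those of the 2 spots named above, and the sum was not redone without them. Over the section 0 of its 2 members with at least 50 counts were past 2-fold, where 10.4% of all genes were at least 2-fold higher and 5.37% lower. In alveolar spots alone, 1 of its members had at least 50 counts, with a log2 ratio of -0.16.

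The ligands that draw neutrophils had no common direction. Their sum had a ratio of 1.18 (1.1 to 1.26), of 1.07 with the tumor-gene cluster left out and of 1.06 in alveolar spots alone. Cxcl1 had 7 counts against 104 in the larger reference, a ratio of 0.454 (0.178 to 0.969), and one of 1.79 with an interval that includes 1 outside the tumor-gene cluster. Cxcl5 had 2 against 60 counts, a ratio of 0.225 (0.0266 to 0.848). Cxcl2 had 0 against 13 counts and Csf3, which encodes G-CSF, 0 against 10, with intervals of the ratio up to 2.21 and 3.01, so that no difference was detectable at this depth. Il6 had 1 count in all and Il17a and Il17f had none, so at this depth no difference can be read for them. Ccl7 and Ccl2, chemokines for monocytes, had 2 against 471 and 16 against 724 counts, ratios of 0.0286 (0.00346 to 0.104) and 0.149 (0.0847 to 0.244). Outside the tumor-gene cluster Ccl7 had 2 against 51 counts, a ratio of 0.241, and Ccl2 one of 0.727 with an interval that includes 1. The exception among CXCR2 ligands was Ppbp, which platelets carry, at 0.495 against 0.0947 CP10k, a ratio of 5.23 (3.69 to 7.37), and 2.26 in alveolar spots alone. Cxcl15, a lung epithelial chemokine and the most abundant of the list, had a ratio of 1.11. Of the 5 chemoattractants with at least 50 counts, 1 was at least 2-fold higher and 2 at least 2-fold lower, where 10.4% and 5.37% of all genes were. With the cluster left out the numbers were 1 and 0 of 3, where 6.74% and 2.53% of 10479 genes were.

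Of the 9 receptors with at least 50 counts besides Csf3r and Cxcr2, 1 was at least 2-fold higher and 0 lower, a share near the 10.4% of all genes. Of 13 adhesion genes 6 were at least 2-fold higher and 0 lower. Among alveolar spots 0 of 7 receptors and 1 of 12 adhesion genes were at least 2-fold higher, where 0.678% of 8706 genes were. Fpr1 and Fpr2, the formyl peptide receptors, had ratios of 2.89 (1.34 to 5.87) and 2.65 (1.54 to 4.41), and C5ar1, the receptor for complement C5a, one of 1.90. Selplg, the P-selectin ligand, had a ratio of 2.21 (1.84 to 2.64), and one of 1.71 in alveolar spots alone. On the endothelial side Icam1 and Icam2 had ratios of 1.94 and 2.64 over the section and 1.13 each in alveolar spots alone. Selp, P-selectin, did not separate the groups, with 10 against 68 counts and a ratio of 0.991 (0.455 to 1.94). Itgam, the alpha chain of Mac-1, had a ratio of 0.925 over the section and one of 2.00 in alveolar spots alone. The 6 NADPH oxidase genes, which make the oxidative burst, had a summed ratio of 1.32 (1.22 to 1.43) and 1.39 in alveolar spots alone. Over the section 0 of 6 were past 2-fold, where 10.4% of all genes were at least 2-fold higher and 5.37% lower.

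Genes often named for suppressive myeloid cells did not move together. Wfdc17 was at 7.32 against 2.65 CP10k, a ratio of 2.76 (2.55 to 2.98) and of 2.63 (2.36 to 2.92) in alveolar spots alone. In the control lung it stood at 0.285 CP10k in the highest 10% and 0.262 CP10k in the reference. Ifitm1 had a ratio of 3.02 over the section, 1.68 in alveolar spots alone and 1.07 in the control lung. Arg1, arginase 1, had 13 against 273 counts, a ratio of 0.321 (0.169 to 0.558). Outside the tumor-gene cluster it had 11 against 56 counts, a ratio of 1.20 (0.569 to 2.32). In alveolar spots alone Arg1 had 4 against 66 counts, a ratio of 0.281 (0.0744 to 0.754). Nos2 and Ptgs2 had 2 and 6 counts in the neutrophil-rich spots. Of the 10 members with at least 50 counts, 3 were at least 2-fold higher and 2 at least 2-fold lower, where 10.4% and 5.37% of all genes were. With the tumor-gene cluster left out the numbers were 4 and 0, where 6.74% and 2.53% of 10479 genes were.

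**Figure D5:**
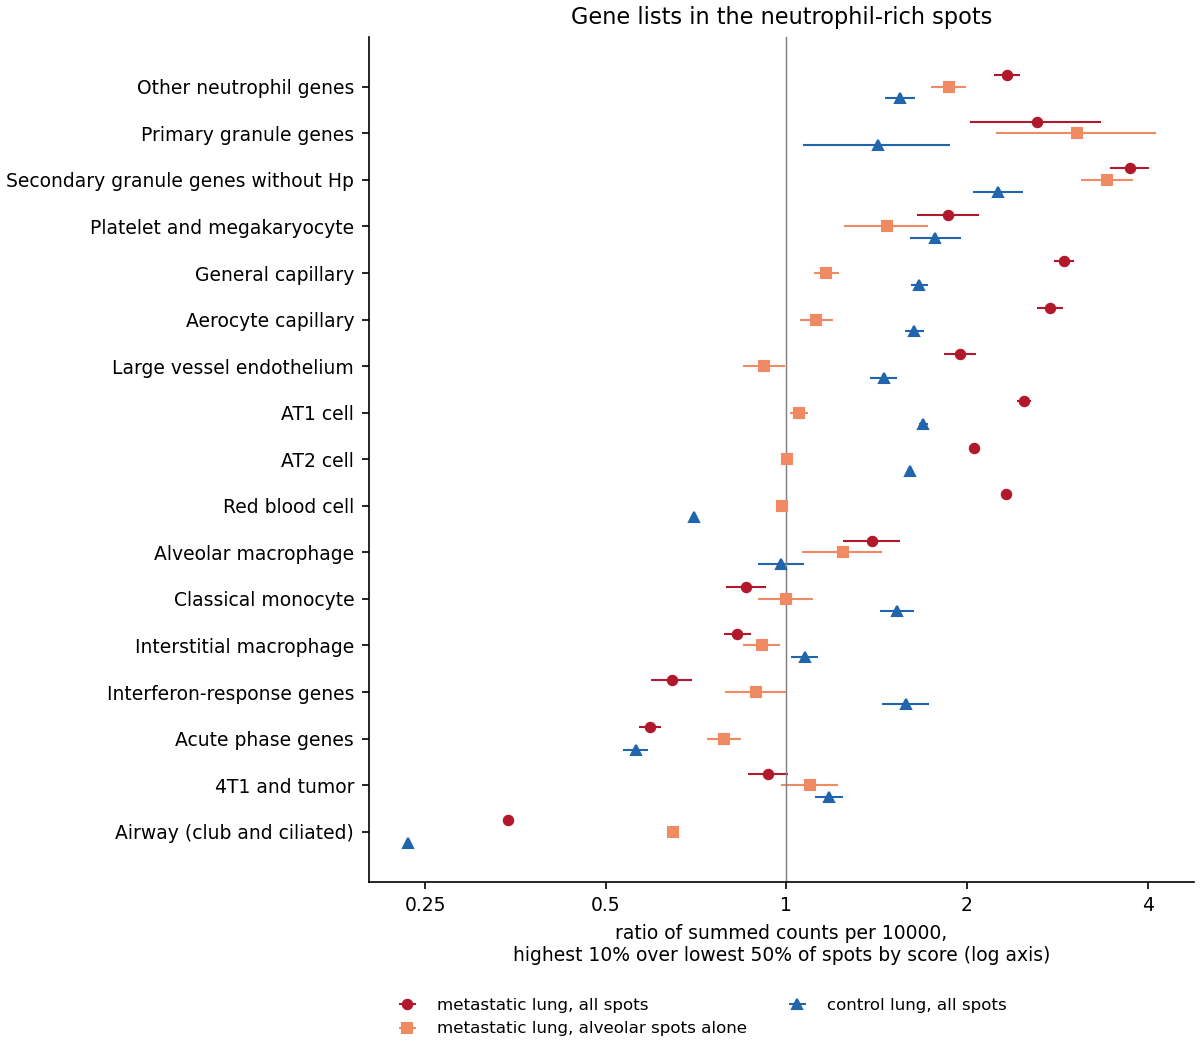
Ratio of summed counts per 10000 between the highest 10% and the lowest 50% of spots by score (log axis) for gene lists, with exact 95% intervals that cover counting error only, in the metastatic lung, its alveolar spots alone and the control lung. In alveolar spots alone the lists of other neutrophil, primary granule and secondary granule genes without Hp lie at 1.86 or higher. The primary granule list has 1 member with at least 50 counts there, and of the 36 Mpo counts of the section 2 spots hold 17 and 10. The lists of AT1, AT2, endothelial and red blood cells lie between 0.919 and 1.17, and the alveolar spots were chosen in part by AT1 and general capillary genes.

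The tissue genes that were higher over the whole section had ratios nearer 1 in alveolar spots alone. Those spots were chosen by AT1, general capillary and alveolar fibroblast genes, so ratios near 1 for these lists are in part fixed by the choice. In alveolar spots alone the ratios were 1.05 (1.02 to 1.09) for AT1, 1.00 (0.987 to 1.02) for AT2, 1.17 (1.11 to 1.22) for general capillary, 1.12 (1.05 to 1.19) for aerocyte and 1.12 (1.08 to 1.16) for alveolar fibroblast genes. No member of these 5 lists was past 2-fold, where 0.678% of 8706 genes were at least 2-fold higher and 1.13% lower. Red blood cell genes had a ratio of 2.32 over the section and 0.982 in alveolar spots alone. Platelet and megakaryocyte genes had one of 1.86 (1.65 to 2.10) and 1.47 (1.25 to 1.72). Itga2b, the platelet integrin, was at 0.303 against 0.0982 CP10k over the section. In spots that mix cells, more cells of a type and more RNA per cell cannot be told apart.

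Genes of other leukocytes differed in both directions. Non-classical monocyte genes had a ratio of 2.72 (2.59 to 2.85), of which Ace, an enzyme that lung endothelium also expresses, supplied 2070 of 2303 counts, and without Ace the ratio was 1.43 (1.23 to 1.64) and 1.32 in alveolar spots alone. The list for mast cells, basophils and eosinophils had a ratio of 2.44 (2.06 to 2.88) and 1.23 in alveolar spots alone, with 183 of its 195 counts from Gata2, a factor that endothelium also expresses. Alveolar macrophage genes had a ratio of 1.39 (1.24 to 1.55) and 1.24 (1.06 to 1.44) in alveolar spots alone, and Chil3 supplied 212 of their 396 counts. Of their 8 members with at least 50 counts, 4 were at least 2-fold higher and 1 lower, where 10.4% and 5.37% of all genes were. In alveolar spots alone 0 of 7 were higher and 2 lower, where 0.678% and 1.13% of all genes were. Marco, a scavenger receptor, had a ratio of 0.264 over the section. Classical monocyte genes had a ratio of 0.856 (0.792 to 0.924) over the section and 0.998 (0.896 to 1.11) in alveolar spots alone. There Ly6c2, the classical monocyte marker, had 30 against 61 counts, a ratio of 2.28. Interstitial macrophage genes had a ratio of 0.828 (0.787 to 0.871) and 0.909 in alveolar spots alone, with the complement genes C1qa, C1qb and C1qc at ratios of 0.622, 0.534 and 0.590. T and NK cell genes had a ratio of 1.31 (1.15 to 1.48) and 1.20 in alveolar spots alone, and B cell genes had ratios of 1.12 (0.963 to 1.3) and 0.920. The defining genes of basophils and mast cells, Mcpt8 and Cpa3, had 5 counts each in the 2 groups together. The part of these other cells in the results above was not tested.

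Inflammatory genes of the tissue had no common direction. Interferon-response genes had a ratio of 0.645 (0.596 to 0.697) over the section, 1.18 when the tumor-gene cluster was left out and 0.889 (0.789 to 1.00) in alveolar spots alone. Cxcl9 and Cxcl10, interferon-induced chemokines for T cells, had 52 against 1149 and 31 against 1017 counts. The acute phase gene Saa3, a serum amyloid, was at 1.26 against 6.02 CP10k and had a ratio of 0.429 in alveolar spots alone. C3, the central complement protein, was at 5.15 against 9.66 CP10k and had a ratio of 0.391 in alveolar spots alone. Class II antigen presentation genes had ratios of 0.812 (0.786 to 0.839) over the section and 0.842 (0.803 to 0.883) in alveolar spots alone.

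The genes with the largest ratios over the whole section mixed both signals. Among genes with at least 200 counts that kept their direction outside the tumor-gene cluster and in all 4 quadrants, the 15 highest were Ngp, Camp, Nrgn, Il1b, Npr3, Pllp, Mcf2l, Erg, Wscd1, Hoxa5, Arhgef26, Wfdc21, Slc7a10, Sema3g and Sema6a, with log2 ratios from 5.11 down to 1.76. Of these Ngp, Camp, Il1b and Wfdc21 were on the neutrophil lists. Erg, an endothelial transcription factor, had a ratio of 3.64 over the section and 1.66 in alveolar spots alone, and Slc7a10, on the alveolar fibroblast list, 3.49 and 1.13. Nrgn, neurogranin, which platelets also carry, had 4.86 and 2.39. The 10 lowest were Ccl7, Anln, Hmgn3, Cckar, Fcna, Ccl2, Birc5, Ptpn7, Cdk1 and Spa17, with log2 ratios from -4.81 to -2.45. Anln, Birc5 and Cdk1 serve cell division, and their counts were 3 against 200, 7 against 301 and 9 against 353. Their ratios were 0.101, 0.157 and 0.172. Outside the tumor-gene cluster the ratios of these genes were 0.267, 0.588 and 0.726, with intervals that include 1. The 4T1 and tumor genes as a list had a ratio of 0.931 (0.861 to 1.01), and 1.09 (0.980 to 1.22) in alveolar spots alone. That list holds Krt7 and Krt8, keratins that lung epithelium also expresses, and it was lower in alveolar spots of the metastatic than of the control lung, 5.77 against 10.1 CP10k.

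In alveolar spots alone, the 15 highest genes after Ngp, Camp and Ltf were led by Ifitm6, Stfa2l1, Wfdc21, Cd33, Pmf1, Mmp9 and Wfdc17. Cd33, a sialic acid receptor of myeloid cells, had 31 against 48 counts, a ratio of 2.99 (1.84 to 4.80). Mmp9, the gelatinase of tertiary granules, had 44 against 77 counts, a ratio of 2.65 (1.79 to 3.89). Lilr4b, an inhibitory receptor of myeloid cells, and Pla2g7, which inactivates platelet-activating factor, had 34 against 63 and 55 against 102 counts. The lowest were Rbp4, Msln, Alox15, Rad54l2, Cd5l, Ccdc80, Igfbp5, Wnt3a, Vegfc and Arg1. Msln, mesothelin of the pleural lining, had 5 against 123 counts and a ratio of 0.188 (0.0601 to 0.452). Alox15 and Cd5l, genes of resident macrophages, had 2 against 54 and 3 against 64 counts. Over all spots outside the tumor-gene cluster their ratios were 1.18 and 0.663, with intervals that include 1.

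Set directly against the highest 10% of control spots, the neutrophil-rich spots had 2.02 times (1.89 to 2.16) the level of the other neutrophil genes. These values compare 2 libraries and not the conditions. Over all alveolar spots, however scored, the 5 score genes were 11.8 times (11.4 to 12.3) and the other neutrophil genes 1.71 times (1.65 to 1.76) as high in the metastatic as in the control lung, and the share of red blood cell genes was 3.35 times as high. Ngp and Camp were also concentrated in the highest control spots, with 94 against 8 and 79 against 12 counts. Their control ratios were 70.0 (34.1 to 167) and 39.2 (21.2 to 79.1), where the metastatic lung had 34.7 and 30.7. Over the whole control section Ltf was not, with 36 counts against 312 in the control reference, and the 10 highest control spots held 53.1% of its counts. In control alveolar spots alone, Ltf had 15 against 13 counts, a ratio of 4.89 (2.17 to 11.2). Over the whole sections, Ltf was among the 10 genes whose log2 ratio most exceeded that of the control. The others were Dnah9, Kndc1, Rsph10b, Mfsd2a, Fabp3, Eno4, Coro6, Dgat2 and Stk33. For Dnah9, an axonemal dynein of ciliated cells, both sections had lower values in the score-rich spots, with 6 against 86 counts in the metastatic and 0 against 200 in the control lung.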

How the data were processed

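The files hold whole-number counts of transcripts per gene and spot, which the authors deposited after Space Ranger 1.3.1 had aligned the reads to mm10, per the labels' processing notes. They are raw counts with no normalization. From them, counts per 10000 counts of a spot gave the score, and the spots of a group were summed before a ratio was taken. Exact intervals are Clopper-Pearson at 95% and cover counting error only. A log2 ratio adds 0.5 counts to each side, and a gene needs at least 50 counts in the compared spots to be counted past 2-fold. The calculation was tested on simulated data with known ratios.

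Spots with under 1000 counts, 6 in the metastatic and 27 in the control lung, were left out. The tumor-gene cluster is the one with the highest 4T1 and tumor genes of 5 k-means clusters on 20 principal components of 2000 variable genes. Airway, vessel, smooth muscle and blood spots are the highest 10% of spots by their genes. Named over the whole section are the 15 highest and 10 lowest genes with at least 200 counts and 1 direction outside the cluster and in the 4 quadrants, with members of the gene lists, the same numbers among genes with at least 50 counts in alveolar spots, and the 10 whose log2 ratio most exceeded the control. The spots and lists were chosen with earlier results of these data known. Alternatives changed the share of spots taken, the score, the depth, the library size, the gene filter and the cluster. Clusters came from scikit-learn 1.9.0, intervals from scipy 1.17.1, sums from numpy 2.4.6 and tables from pandas 2.3.3 in Python 3.11.15. Plots were drawn in matplotlib 3.10.9.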

Additional observations from a re-analysis of the deposited data

Results flagged for a closer look

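For 8 gene lists the highest 10% of spots by score lay on opposite sides of their reference in the metastatic and in the control lung, with both counting intervals clear of 1. With 1 section each, the difference between the sections was not tested. Interferon-response genes had a ratio of 0.645 in the metastatic and 1.58 in the control lung. Classical monocyte genes had ratios of 0.856 and 1.53, interstitial macrophage genes 0.828 and 1.07, and plasma cell genes 0.878 and 1.27. Class II antigen presentation genes had ratios of 0.812 and 1.21, hypoxia and glycolysis genes 0.772 and 1.09, and mesothelial genes 0.795 and 1.16. Red blood cell genes went the other way, with 2.32 in the metastatic and 0.702 in the control lung. When the tumor-gene cluster was left out, the metastatic ratio was above 1 for the interferon-response, monocyte, interstitial macrophage, plasma cell, class II and hypoxia lists, and at 0.618 for the mesothelial list.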

How the results depend on the processing

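The ratio of other neutrophil genes stayed above 1 under every setting run. It was 2.67 and 2.09 with 5% and 20% of spots, and 2.07 without S100a8 and S100a9 in the score. With each spot thinned to 5000 counts (1028 spots) it was 2.07, and with a library size without 453 genes of abundant families 2.06. It was 2.58 without the tumor-gene cluster, 1.99 as a mean over spots and 1.86 in alveolar spots alone. In the same order without the cluster, the control lung gave 1.70, 1.43, 1.39, 1.39, 1.27, 1.37 and 1.25. The airway ratio stayed below 1, at 0.314, 0.396, 0.346, 0.474, 0.474, 0.272, 0.510 and 0.648, and at 0.337 with spots chosen on one part of the counts and measured in the rest. Large vessel genes gave 1.45 thinned, 1.60 with the other library size, 2.12 on split counts, 1.46 without the cluster, 1.42 as a mean and, turned round, 0.919 in alveolar spots alone. Tumor genes gave 0.822 with the other library size, 1.12 without the cluster and 1.09 in alveolar spots alone. The cause of these changes was not tested. The 453 genes were those of the hemoglobin, mitochondrial, secretoglobin, surfactant protein and immunoglobulin families (with Jchain), chosen by name and not by level. They held 17.5% of neutrophil-rich and 28.7% of reference counts. For these same groups of spots, leaving them out of the library size shifts every log2 ratio by -0.21. The ratios given for this setting do not move by that constant, because the spots were also chosen anew with that library size.

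Genes at least 2-fold higher numbered 368 thinned, 599 with the other library size, 706 without the cluster, 3914 at 1 or more counts, 631 at 200 or more and 59 in alveolar spots alone, against 1165. Those lower numbered 267 thinned, 265 without the cluster, 1352 and 173 at these limits and 98 in alveolar spots alone, against 603. The share of neutrophil-rich spots over 500 µm away was 56.4% from the 6% of spots highest in tumor genes and 87.3% from the cluster of 83 spots. Without the cluster the ratios turned to 1.18 for interferon-response, 1.07 for class II, 1.17 for hypoxia, 1.49 for classical monocyte, 1.03 for interstitial macrophage and 1.35 for plasma cell genes. Thinning turned T and NK cell genes to 0.922 and ciliated cell genes to 1.08, and the mean over spots turned the latter to 1.07. None of the 25 named genes changed direction under 9 settings. They were chosen for extreme ratios and for the same direction without the cluster, so that setting could not turn them. In alveolar spots alone some of their intervals include 1, such as those of Hoxa5 (0.894 to 1.88) and Slc7a10 (0.828 to 1.53). No paired analysis was possible because each condition is 1 section. Depth limits single spots, where a gene such as Cxcr2 had at most 4 counts.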
